A study of Mus musculus with 24 samples.

Results

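The genes described here encode the proteins of the cytosolic ribosome. They were the rows of the deposited mouse count matrix whose symbol is Rpl or Rps followed by digits, with an optional a or x and nothing after it, together with Rplp0, Rplp1, Rplp2 and Rpsa. With a minimum of 10 counts summed over the 24 libraries and without pseudogene rows (symbols with -ps), 76 of 39017 rows were members, 46 of the large subunit and 30 of the small subunit. No row with such a symbol fell under the minimum.

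The samples were fat depots of C57BL/6 mice, taken beneath the skin at mammary gland number 4 and flash frozen, whose total RNA was sequenced once DNase treatment and ribosomal RNA depletion had been done. The 6 groups of 4 libraries were peritumoral fat (next to the breast tumor) on HFD and on Chow, contralateral fat (of the other side) on HFD and on Chow, and no-tumor fat on HFD and on Chow. The diets are named here as the labels name them, and the series calls the animals lean and obese. The tumor line, the age and sex of the animals and the composition of the diets are not stated in the labels. Nor do they state whether replicates were separate animals, so the spread behind each p-value may be technical.

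A cytosolic ribosome pairs a small subunit, which reads the messenger RNA, with a large subunit, which joins amino acids, and each subunit is built from ribosomal RNA and a fixed set of proteins. Vertebrate mRNAs of these proteins usually begin with a C and a run of pyrimidines, the TOP motif, through which mTORC1 and LARP1 set how much of them is translated. MYC raises the transcription of many of these genes, and dividing or growing cells make more ribosomes than resting ones. In a tissue of several cell types such as fat, their level per total RNA reflects both the growth state and the mix of cells. Bulk libraries cannot tell fewer cells of a type from less RNA per cell.

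Promoter windows of RefSeq (GRCm38.p6, 250 bases before to 50 after the annotated start, 300 in all) were matched by symbol for 56 of the 76 members. The run searched for was a C followed by at least 5 more C or T bases, 6 or more in all, on the gene's own strand. It was counted from a C within 5 bases of an annotated start in 25 of these 56 members (44.6%). Of all 27025 genes in the table, 3229 had such a run (11.9%). Within 30 bases of a start the share was 80.4% of members and 46.2% of all genes. A run that opened further upstream was counted from its first C inside the reach, in members and all genes alike. The motif CCGGAAG, searched on both strands of the 300 bases, a form of the sequence bound by ETS factors, was in 41.1% of members and in 9.93% of all genes. These are matches of letters in a window, and no use of the sites was measured. The windows below run from 10 bases before the annotated start to 20 bases from it, on the gene's strand. They show 6 members whose values are used further on, with the counted part of the pyrimidine run in capitals. In Rpl35 the run opens upstream of the capitals.
Rpl35 (chr2:39005112-39005141, minus strand): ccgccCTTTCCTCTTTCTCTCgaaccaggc
Rpl18 (chr7:45718061-45718090, plus strand): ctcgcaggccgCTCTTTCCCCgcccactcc
Rps6 (chr4:86857348-86857377, minus strand): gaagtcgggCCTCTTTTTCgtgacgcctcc
Rplp2 (chr7:141447641-141447670, plus strand): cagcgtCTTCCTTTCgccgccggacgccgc
Rpl12 (chr2:32961702-32961731, plus strand): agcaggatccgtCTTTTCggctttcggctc
Rpl28 (chr7:4792955-4792984, plus strand): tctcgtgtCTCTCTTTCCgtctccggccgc

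Ribosomal protein genes have many processed copies in the genome, so the sequence of each member decides how many reads can be placed in it alone. Every 50-base stretch of the coding sequence of each member was looked up, on both strands and without mismatch, in the GENCODE M21 transcripts of all other genes. In 29 of the 76 members no coding stretch was found in that member alone. The first 50 coding bases of 5 members, with the start codon in capitals, show both ends of this range.
Rps3: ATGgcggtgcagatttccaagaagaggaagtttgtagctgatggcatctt
Rpl8: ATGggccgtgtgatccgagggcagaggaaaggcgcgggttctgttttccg
Rpl23a: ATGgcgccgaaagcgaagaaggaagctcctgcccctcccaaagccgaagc
Rpl24: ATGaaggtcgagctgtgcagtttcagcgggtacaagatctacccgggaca
Rps27a: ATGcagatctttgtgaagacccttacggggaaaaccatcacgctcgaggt
The window of Rps3 and that of Rpl8 were in 0 other genes, and these members held 91410 and 82805 counts over the 24 libraries. The window of Rpl23a was in 7 other genes, that of Rpl24 in 3 and that of Rps27a in 2, and these members held 73, 166 and 1198 counts. Other members went the other way. The window of Rplp0 was in 3 other genes and that of Rpl41 in 4, with 90157 and 49168 counts. That of Rps7 was in 0 other genes, with 1229 counts. Rps27a encodes a ribosomal protein fused to ubiquitin.

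Across the 76 members, counts per kb of mRNA followed the unique share of the coding sequence (Spearman's rho 0.796, across genes, which are not independent replicates). The 29 members with no coding stretch of their own held 7.02% of all member counts, with a median of 856 counts and a highest value of 49168 in Rpl41, which encodes the smallest protein of the ribosome. The other 47 held 92.98%, with a median of 15715 counts. The sources used here do not say whether reads that match several places were counted. What part shared sequence had in the levels was not tested. Levels of different members are for this reason not read as a ranking of their mRNAs.

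**Figure D1:**
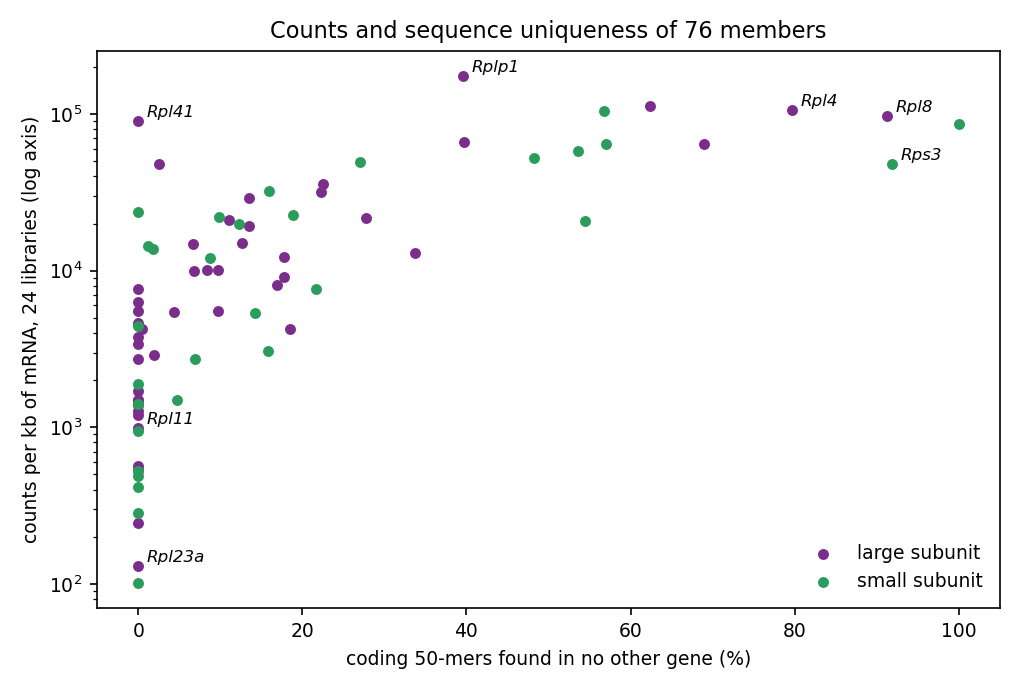
Each point is a member. The horizontal axis is the percent of its coding 50-base stretches found in no other gene, and the vertical axis is its counts per kb of mRNA summed over 24 libraries, on a log axis. Members at 0% spread over most of the vertical axis, from near Rpl41 at the top to near Rpl23a (73 counts) at the bottom, while Rps3, Rpl8 and Rpl4 lie at the upper right.

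On the scale of CPM per kb of counted exon, averaged over the 24 libraries, Rplp1, which encodes an acidic protein of the stalk that recruits elongation factors, was highest at 473 and ranged from 292 to 680 over libraries. Rpl4, which lines the exit tunnel, averaged 310 CPM per kb, and Rpl32 averaged 302. The lowest member was Rpl23a at 0.23 CPM per kb. The 5 members with the most counts held 35.2% of all member counts and the 10 with the most held 54.0%.

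The libraries held 9.13 to 18.2 M counts. Contralateral libraries held 16.67 to 17.29 M on HFD and 11.69 to 13.85 M on Chow. Peritumoral libraries held 15.98 to 18.2 M on HFD and 9.13 to 14.46 M on Chow. The diets did not overlap at these positions. No-tumor libraries held 14.98 to 16.53 M on HFD and 16.12 to 16.64 M on Chow, which overlapped. What part library size had in the diet comparisons and interactions was not tested. The 76 members took up 0.313% to 0.687% of a library's counts. HFD peritumoral libraries held 0.450%, 0.687%, 0.484% and 0.452%, against 0.382%, 0.381%, 0.383% and 0.326% in Chow peritumoral libraries. HFD contralateral libraries held 0.393%, 0.375%, 0.399% and 0.320%, against 0.399%, 0.313%, 0.373% and 0.396% in Chow contralateral libraries. HFD no-tumor libraries held 0.385%, 0.344%, 0.347% and 0.344%, against 0.427%, 0.327%, 0.383% and 0.409% in Chow no-tumor libraries. On this share of all counts, all HFD peritumoral libraries lay above every other library. This did not hold with mitochondrial transcripts and noncoding rows such as Malat1 and Gm42418 left out of the total. HFD peritumoral replicate 1 was then at 0.6242%, under Chow no-tumor replicates 1 (0.6505%) and 4 (0.6405%). 2 libraries stood apart in what else they held: in Chow contralateral replicate 2 a single row, Gm42418, took 11.4% of counts, and Chow peritumoral replicate 4 had the fewest counts and the largest share of mitochondrial ribosomal RNA (35.8%, against 20.5% to 34.8% in the other libraries). After scaling (CPM with TMM factors over all 24 libraries), summed member CPM was 5090 ± 832 in HFD peritumoral, 3572 ± 225 in Chow peritumoral, 3866 ± 364 in HFD contralateral, 3552 ± 116 in Chow contralateral, 3396 ± 155 in HFD no-tumor and 4178 ± 294 in Chow no-tumor fat (mean ± SD, n = 4 libraries each).

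**Figure D2:**
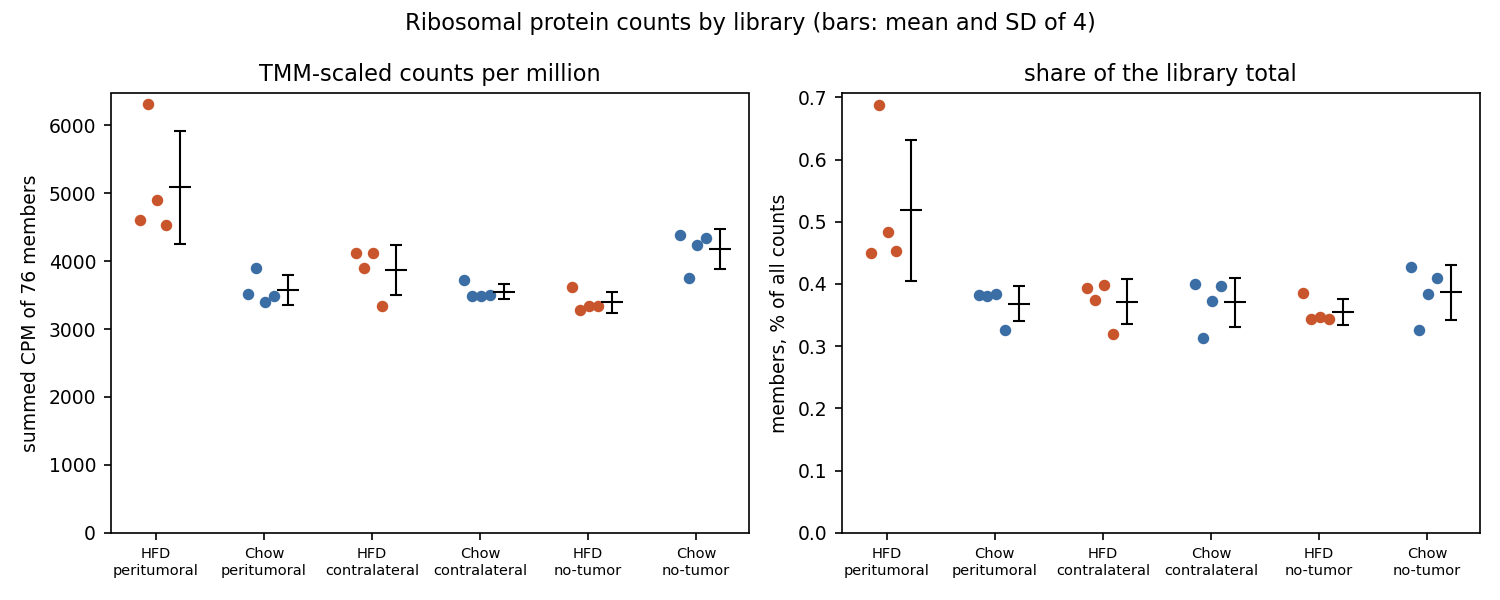
Summed TMM-scaled CPM of the 76 members (left) and their percent of all counts (right) for each library, in 6 groups of 4, with mean and SD beside the points. HFD peritumoral fat is highest on both scales, with replicate 2 at 0.687% of counts.

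The labelled tissue carried the genes of mature adipocytes throughout. The 14 adipocyte markers (Adipoq, Plin1, Fabp4 and others) summed to 13500 to 25390 CPM in HFD peritumoral fat and to 17660 to 31470 CPM in the other groups. In HFD peritumoral against HFD contralateral fat, all 16 cell cycle genes and 10 of 12 macrophage genes were higher and 12 of 14 adipocyte genes were lower. Cell cycle genes summed to 264 to 766 CPM in HFD peritumoral fat, and to 57.8 to 274 CPM over the other 5 groups, whose highest value was that of Chow peritumoral replicate 4. B cell genes passed the test in none of the 9 comparisons (edgeR), but reached 221 CPM in HFD peritumoral replicate 2 and 226 CPM in Chow contralateral replicate 4, with 13.3 to 84.6 CPM in the other libraries. Skeletal muscle genes ran from 81.6 to 5118 CPM in Chow contralateral and from 17.8 to 2836 CPM in all other groups.

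Each fold change below is a log2 value ± SE from edgeR's quasi-likelihood test on its own libraries, with p-values adjusted by Benjamini-Hochberg over all genes tested, and a gene is called higher or lower at an adjusted p below 0.05. A level is in CPM, with the SD of the 4 libraries of a group (n = 4). The 9 comparisons share libraries with each other and are not independent. Background shares are the percent of all genes tested that were called in the same direction.

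**Figure D3:**
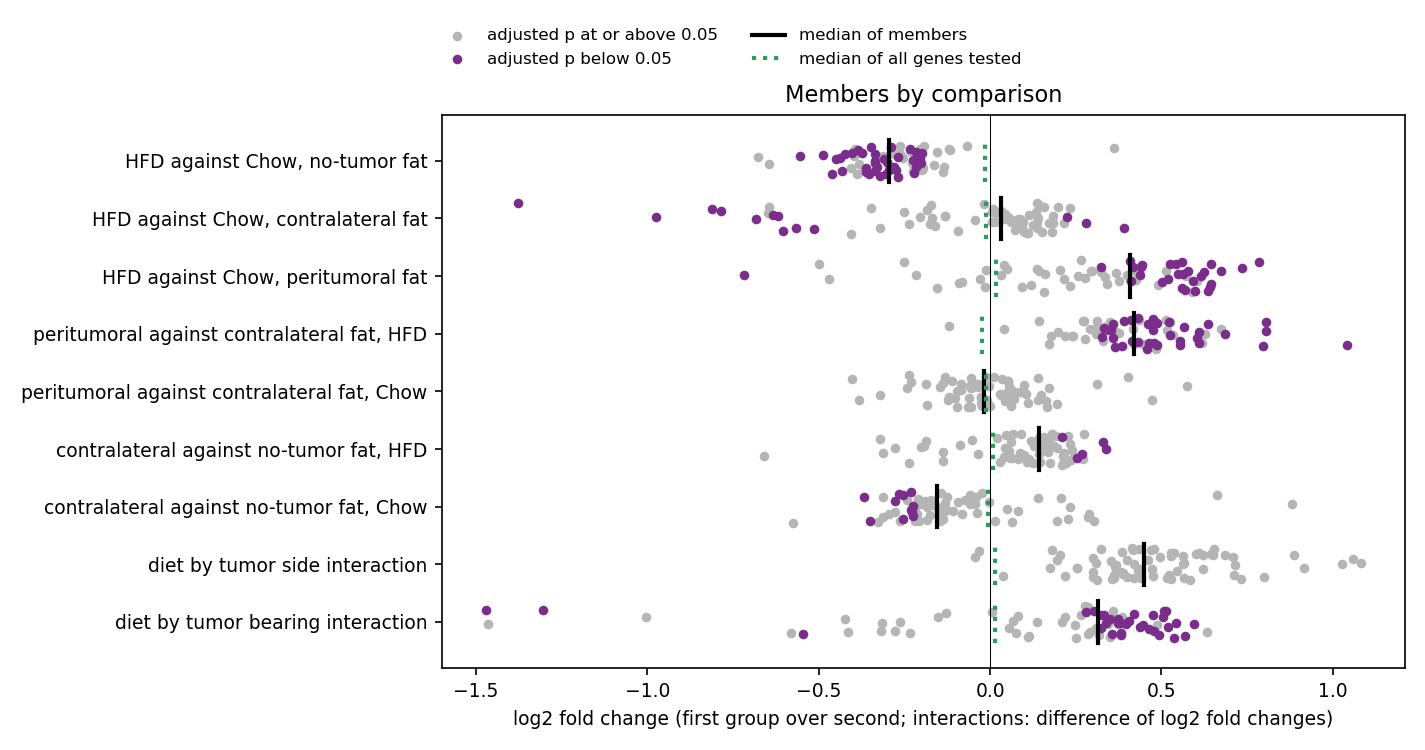
Each point is a tested member in one of 9 comparisons, placed by its log2 fold change, in purple where the adjusted p was below 0.05. Black lines mark the median of the members and dotted green lines that of all genes tested. Members lie to the left in HFD against Chow no-tumor fat (median -0.29) and to the right in HFD peritumoral fat (medians 0.41 and 0.42).

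In fat of mice without a tumor, ribosomal protein genes were lower on HFD than on Chow. Of 69 members tested, 0 were called higher and 37 lower, against backgrounds of 13.6% higher and 11.3% lower, and 68 of 69 fold changes were negative. The median was -0.29 for members and -0.02 for all genes tested, -0.28 for the large and -0.34 for the small subunit. Rps14, a small subunit protein needed to mature the small subunit rRNA, had 71.8, 66.1, 69.5 and 72.1 CPM in HFD libraries, against 101.3, 88.8, 96.2 and 94.1 CPM in Chow libraries. The groups did not overlap, and the log2 fold change was -0.43 ± 0.06 (adjusted p = 0.000164). Rpl15, of the large subunit, had the lowest fold change among called members, with 11.4 ± 0.29 CPM on HFD and 16.9 ± 1.38 CPM on Chow (-0.55 ± 0.08, adjusted p = 0.000518). Rpsa, the protein also known as the laminin receptor, averaged 47.2 ± 3.49 CPM on HFD and 65.5 ± 5.70 CPM on Chow (-0.46 ± 0.07, adjusted p = 0.000686).

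The called members came from both subunits and from several roles. All 3 stalk proteins were lower, with Rplp0 at 210.4 ± 12.3 CPM on HFD and 258 ± 18.6 CPM on Chow (-0.28 ± 0.07, adjusted p = 0.00864). Rpl3, which surrounds the peptidyl transferase center, fell by 0.34 ± 0.09 (adjusted p = 0.0183) and Rpl4 by 0.21 ± 0.06 (adjusted p = 0.0260). Rps2 and Rps3, both at the entry of the mRNA channel, fell by 0.37 ± 0.08 and 0.35 ± 0.06 (adjusted p = 0.00552 and 0.00102). Rpl5, which forms the 5S particle with Rpl11, had 6.94 ± 0.61 CPM on HFD and 9.40 ± 0.55 CPM on Chow (-0.42 ± 0.10, adjusted p = 0.0106). Rpl11 itself had -0.07 ± 0.23 (adjusted p = 0.870), and the single positive value, of Rpl28, was 0.36 ± 0.29 (adjusted p = 0.402).

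Of the 23 genes for translation factors and other TOP mRNAs, 1 was higher and 6 were lower (median -0.14). The higher one was Nap1l1, a histone chaperone, at 0.77 ± 0.07 (adjusted p = 9e-06), while Npm1, a nucleolar chaperone, fell by 0.30 ± 0.06 (adjusted p = 0.00493). Of 35 genes for ribosome assembly and rRNA synthesis, 2 were higher and 6 lower (median -0.15), with Sbds, which helps to release Eif6 from the large subunit, at 0.48 ± 0.06 and Dkc1, the pseudouridine synthase of box H/ACA particles, at -0.50 ± 0.08 (adjusted p = 0.000101 and 0.000788). Of 24 tested genes for mTORC1 and MYC control, 4 were higher and 3 lower, and Myc averaged 13.9 ± 2.10 CPM on HFD and 25.7 ± 2.91 CPM on Chow (-0.87 ± 0.11, adjusted p = 0.000164). The 75 tested mitochondrial ribosomal protein genes, nuclear genes whose products serve the separate ribosome of mitochondria, gave 2 higher and 10 lower with a median of -0.07. With total counts in place of TMM factors, which moves the median of all genes by over 0.1 on the log2 scale, to 0.15, the count of members fell to 5 lower and the other lists gave 1 higher and 0 lower translation factor and TOP genes, 4 higher and 2 lower assembly genes, 9 higher and 1 lower mTORC1 and MYC genes and 10 higher and 0 lower mitochondrial ribosomal protein genes. The median of members relative to that of all genes was -0.28 on both scales. A change of scaling moves all genes of a library alike, so this value was bound to stay and is no check. Endothelial markers summed to 873 to 914 CPM on HFD and to 521 to 576 CPM on Chow (8 higher of 9), mammary epithelium markers to 1086 to 1169 CPM on HFD and to 1466 to 2105 CPM on Chow (5 lower of 11 tested), and plasma cell markers to 131 to 159 CPM on HFD and to 208 to 267 CPM on Chow (1 lower of 3 tested). Mitochondrial ribosomal RNA took 20.5% to 22.01% of counts on HFD and 29.7% to 34.8% on Chow, and 6 of 15 tested cell cycle genes were higher on HFD. What part these had in the members' values was not tested. Leaving out 1 library gave 21 to 46 lower, with 21 without HFD replicate 2, 23 without HFD replicate 3, 24 without HFD replicate 4, 22 without Chow replicate 1 and 24 without Chow replicate 4.

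In contralateral fat the diet comparison called members less often than genes in general, in both directions. Of 70 tested, 3 were higher and 10 lower on HFD, against backgrounds of 24.5% and 24.8%. The median was 0.03 against -0.01 for all genes. The 10 lower members were Rpl11, Rpl5, Rpl12, Rpl27, Rps6, Rpl31, Rps27a, Rpl10a, Rpl10 and Rpl17. Rpl11 had 1.33, 1.48, 1.42 and 1.25 CPM in HFD libraries, against 4.16, 3.53, 3.43 and 2.81 CPM in Chow libraries. The groups did not overlap, and the fold change was -1.38 ± 0.19 (adjusted p = 0.000141). Rpl5, its partner in the 5S particle that also binds Mdm2, had 6.72, 5.23, 5.73 and 5.64 CPM in HFD libraries, against 10.43, 10.97, 11.18 and 12.09 CPM in Chow libraries. It was again without overlap, at -0.98 ± 0.11 (adjusted p = 3.4e-05). Rpl12, at the base of the stalk, averaged 3.34 ± 0.77 CPM on HFD and 5.70 ± 0.48 CPM on Chow (-0.81 ± 0.17, adjusted p = 0.00217). Rps6, the substrate of S6 kinase, averaged 1.86 ± 0.16 CPM on HFD and 2.92 ± 0.38 CPM on Chow (-0.68 ± 0.18, adjusted p = 0.00912).

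The higher members in contralateral fat included Rpl41 and Rps21. Rpl41 had 147.8, 141.7, 139.1 and 137.7 CPM in HFD libraries, against 119.2, 100.9, 100.3 and 100.1 CPM in Chow libraries, without overlap (0.39 ± 0.06, adjusted p = 0.000461). Rps21 rose by 0.28 ± 0.08 (adjusted p = 0.0160). The stalk proteins Rplp0, Rplp1 and Rplp2 had 0.13, 0.17 and 0.14 with adjusted p from 0.120 to 0.279. Without HFD replicate 4, whose member share was the lowest of its group (0.320%), 18 members were higher and 10 lower. Mature adipocyte markers summed to 29180 to 31470 CPM on HFD and to 18940 to 22250 CPM on Chow (9 higher and 2 lower of 14). Mammary epithelium markers summed to 620 to 762 CPM on HFD and to 1348 to 1538 CPM on Chow (9 lower of 11 tested), and skeletal muscle markers to 47.0 to 80.1 CPM on HFD and to 81.6 to 5118 CPM on Chow (10 lower of 11). The groups did not overlap in any of these sums, and their part in the members' values was not tested.

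**Figure D4:**
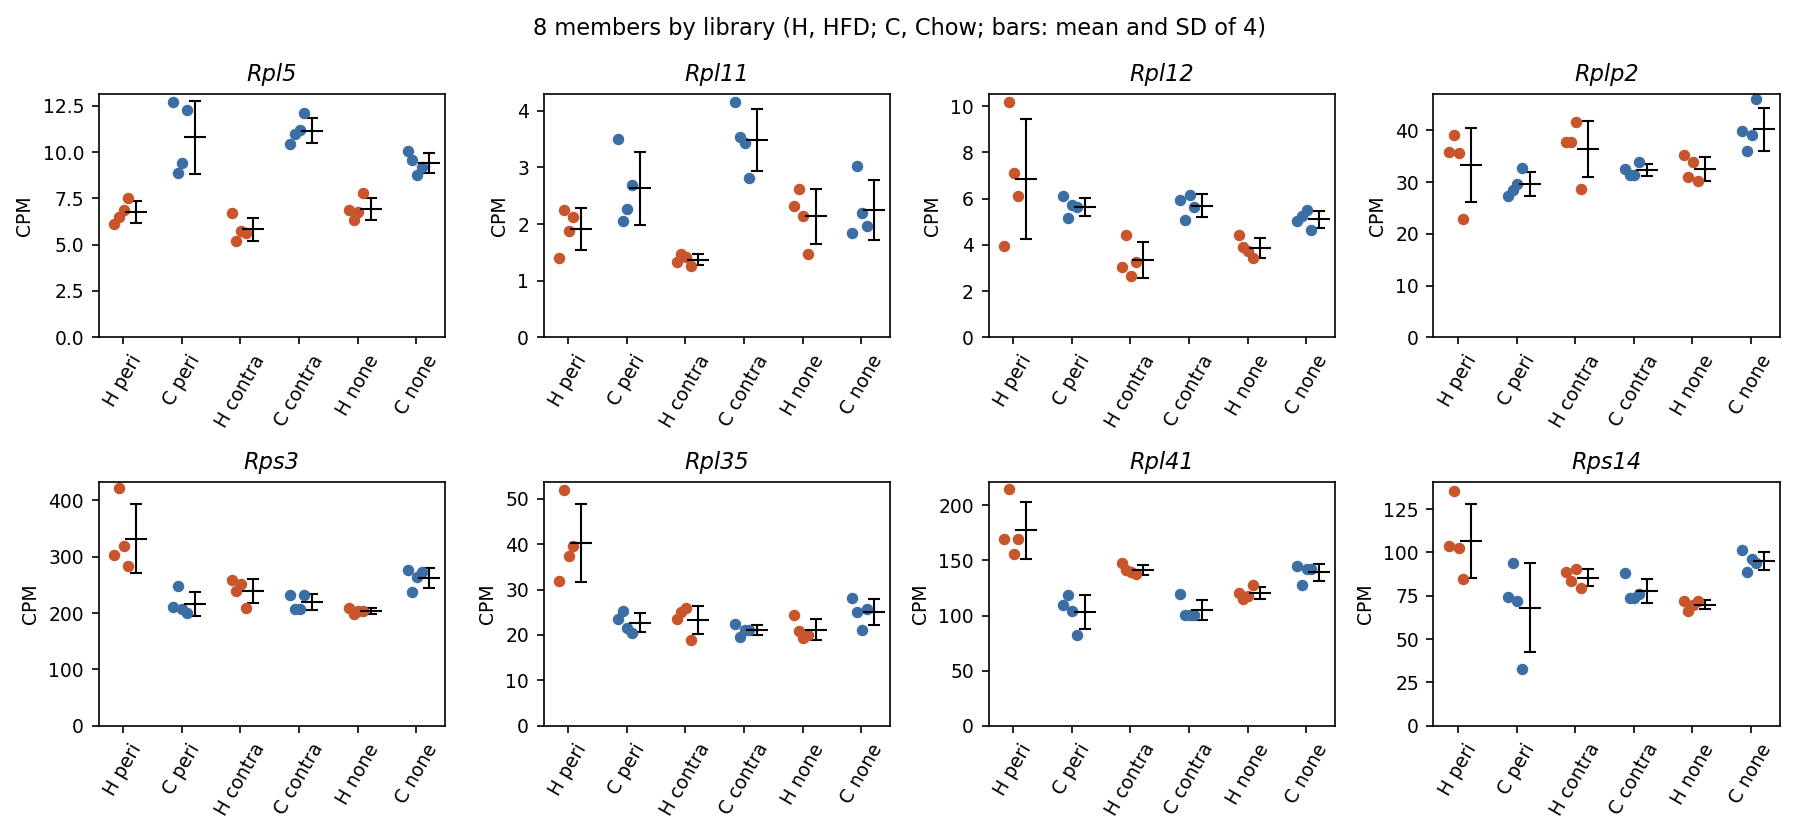
CPM of 8 members in each library, in 6 groups of 4, with mean and SD beside the points. Rpl5 is lower on HFD in each position, Rps3, Rpl35 and Rpl41 are highest in HFD peritumoral fat, and Rps14 has a low value of 32.9 CPM in Chow peritumoral replicate 4.

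The members that were lower on HFD in contralateral fat were mostly those without a coding stretch of their own, a split chosen after the values were seen and given without a test. In this class of 29, 23 were tested, of which 1 was higher and 9 lower, with a median of -0.41. In the class of 47 with at least 1 coding stretch of their own, 2 were higher and 1 lower, with a median of 0.08. The difference in medians was of the same sign in peritumoral fat on HFD against Chow (0.04 in the first class and 0.44 in the second). In no-tumor fat the medians were -0.34 and -0.28, and between HFD peritumoral and HFD contralateral fat they were both 0.42. Over the 70 tested members, the fold change in contralateral fat and the unique coding share had a Spearman's rho of 0.518, as a description across genes that share libraries and base composition. With the percent of counted exon bases outside the member's mRNA, rho was -0.322. That percent was 47.8% for Rpl5 and 69.1% for Rpl11.

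Nuclear noncoding RNAs, a measure of the RNA composition of a library, differed between the diets in contralateral fat. Malat1 averaged 5435 ± 143 CPM on HFD and 10850 ± 285 CPM on Chow (-1.04 ± 0.09, adjusted p = 5e-06), and all 4 tested genes of that list were lower, with a median of -0.93. In peritumoral fat the same 4 genes were lower on HFD with a median of -1.16. Member medians there were 0.04 in the class with no coding stretch of its own and 0.44 in the other class. In no-tumor fat 1 noncoding RNA was higher and 1 was lower, and the medians of these classes were -0.34 and -0.28. Their part in the split of the members was not tested.

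**Figure D5:**
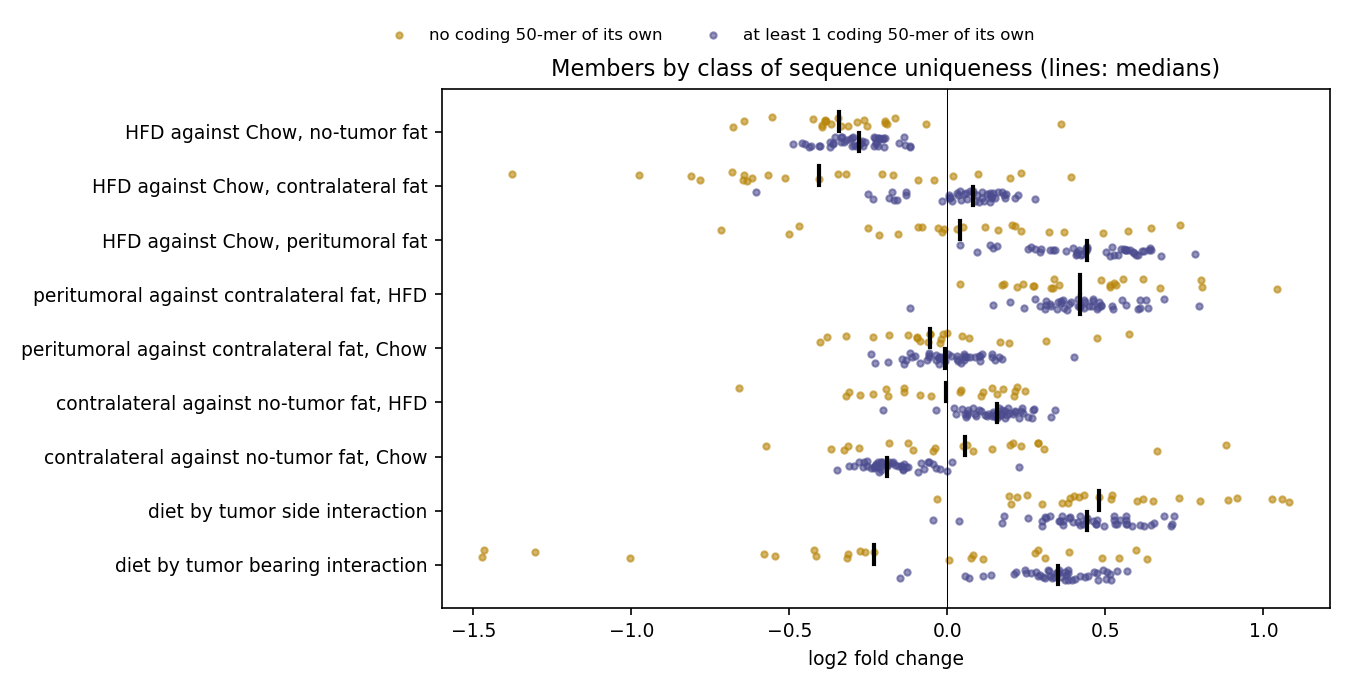
Log2 fold changes of members with no coding 50-base stretch of their own (gold) and with at least 1 (blue) in the 9 comparisons, with black lines at the class medians. The classes lie apart in HFD against Chow contralateral fat (medians -0.41 and 0.08) and together in HFD peritumoral against HFD contralateral fat (0.42 in both).

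In peritumoral fat ribosomal protein genes were higher on HFD than on Chow. Of 71 members tested, 28 were higher and 1 was lower, against backgrounds of 16.4% and 17.2%, and the median was 0.41 against 0.02 for all genes. Both subunits took part, with 17 of 44 large subunit and 11 of 27 small subunit members higher. Rpl35, a large subunit protein near the exit tunnel, had 31.9, 52.0, 37.4 and 39.6 CPM in HFD libraries, against 23.5, 25.3, 21.5 and 20.5 CPM in Chow libraries. The groups did not overlap (0.78 ± 0.15, adjusted p = 0.00392). Rpl41 had 169.6, 214.6, 155.6 and 169.2 CPM in HFD libraries, against 109.2, 118.3, 104.2 and 82.3 CPM in Chow libraries (0.74 ± 0.13, adjusted p = 0.00353). Rpl6 averaged 44.7 ± 5.87 CPM on HFD and 28.7 ± 3.45 CPM on Chow (0.60 ± 0.12, adjusted p = 0.00593).

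Among the roles, Rps2 and Rps3 rose by 0.64 ± 0.17 and 0.58 ± 0.14 (adjusted p = 0.0168 and 0.0109), Rplp0 and Rplp1 by 0.53 ± 0.13 and 0.55 ± 0.15 (adjusted p = 0.0131 and 0.0180), and Rpl4 by 0.41 ± 0.13 (adjusted p = 0.0331). Rps25, which several viral internal ribosome entry sites require, rose by 0.54 ± 0.14 (adjusted p = 0.0172), and Rps4x, encoded on the X chromosome, by 0.41 ± 0.12 (adjusted p = 0.0287). Rplp2 had 0.14 ± 0.16 (adjusted p = 0.522), with 35.9, 39.1, 35.6 and 22.9 CPM in HFD libraries against 27.3, 28.6, 29.6 and 32.8 CPM in Chow libraries. The single lower member was Rpl5, with 6.13, 6.50, 6.88 and 7.51 CPM in HFD libraries, against 12.7, 8.86, 9.39 and 12.3 CPM in Chow libraries (-0.72 ± 0.17, adjusted p = 0.00959). Rpl5 was thus called lower on HFD at each of the 3 positions.

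Ribosome assembly genes were also higher there, with 17 of 35 called higher and 0 lower (median 0.47). Eif6, which keeps the subunits apart until the large one is mature, averaged 45.6 ± 11.3 CPM on HFD and 22.3 ± 2.56 CPM on Chow (0.99 ± 0.17, adjusted p = 0.00241), and Pes1 and Bop1, of the complex that processes large subunit rRNA, rose by 0.55 ± 0.10 and 0.87 ± 0.16 (adjusted p = 0.00309 and 0.00340). Of the 23 translation factor and TOP genes 12 were higher and 2 lower, Rack1, a small subunit scaffold, among the higher ones (0.58 ± 0.14, adjusted p = 0.0113). Of the 75 mitochondrial ribosomal protein genes 11 were higher and 1 lower (median 0.21). Cell cycle genes gave 14 higher of 16, macrophage genes 8 higher of 12 and mammary epithelium genes 9 lower of 11 tested, and their part in the ribosomal values was not tested. Leaving out 1 library gave 18 to 35 called members, with 17 higher and 1 lower without Chow replicate 1, and the median without HFD replicate 2 was 0.25.

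Within HFD animals, ribosomal protein genes were higher in peritumoral than in contralateral fat. Of 69 members tested, 35 were higher and 0 lower, against backgrounds of 16.8% and 12.7%, and 68 of 69 fold changes were positive, with a median of 0.42 against -0.02 for all genes. Rpl35 had the lowest adjusted p, with 31.9, 52.0, 37.4 and 39.6 CPM in peritumoral libraries, against 23.54, 25.02, 25.92 and 18.86 CPM in contralateral libraries, without overlap (0.79 ± 0.16, adjusted p = 0.00765). Rpl34, Rpl18 and Rpl7a of the large subunit rose by 0.55 ± 0.13, 0.47 ± 0.11 and 0.48 ± 0.11 (adjusted p = 0.0127, 0.0134 and 0.0139). Rpl12 had the largest fold change, at 1.04 ± 0.29 (adjusted p = 0.0244), with 3.94, 10.2, 7.12 and 6.11 CPM in peritumoral libraries against 3.03, 4.43, 2.65 and 3.26 CPM in contralateral libraries, which overlapped. Rpl31 rose by 0.81 ± 0.25 (adjusted p = 0.0368) with 2.52 ± 0.73 CPM in peritumoral and 1.45 ± 0.22 CPM in contralateral fat.

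Rps2, Rps3 and Rpsa rose by 0.63 ± 0.17, 0.48 ± 0.13 and 0.49 ± 0.14 (adjusted p = 0.0244, 0.0259 and 0.0318). Rpl3 and Rpl10, both beside the catalytic center, rose by 0.53 ± 0.13 and 0.55 ± 0.14 (adjusted p = 0.0175 and 0.0190), and the tunnel proteins Rpl4 and Rpl39 by 0.41 ± 0.13 and 0.33 ± 0.09 (adjusted p = 0.0351 and 0.0226). Of the stalk proteins none passed: Rplp0 had 0.37 ± 0.13 (adjusted p = 0.0546), Rplp1 0.24 ± 0.13 (adjusted p = 0.175) and Rplp2, the single negative value, -0.12 ± 0.17 (adjusted p = 0.609). Rpl5 and Rps6 had 0.22 ± 0.13 and 0.04 ± 0.19 (adjusted p = 0.230 and 0.888).

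Genes for ribosome assembly had 26 higher and 1 lower of 35 (median 0.58), among them Nop58, of box C/D particles, at 1.10 ± 0.21, and the nucleolar GTPase Gnl3 at 0.79 ± 0.14 (adjusted p = 0.00708 and 0.00528). Of the translation factor and TOP genes 8 were higher and 1 lower, with Npm1 at 146 ± 54.2 CPM in peritumoral and 64.9 ± 9.01 CPM in contralateral fat (1.18 ± 0.24, adjusted p = 0.00805) and Eef1g, an elongation factor subunit, at 0.70 ± 0.12 (adjusted p = 0.00423). Of 75 mitochondrial ribosomal protein genes 0 were higher and 4 lower (median -0.08), and genes of oxidative phosphorylation had 0 higher and 19 lower of 90 (median -0.25). Cell cycle, macrophage and adipocyte markers moved in the same comparison, as given above, and their part was not tested. With the B cell mean as a covariate 11 members were called, all higher. Leaving out 1 library gave 12 to 43, with 20, 14, 20 and 12 without HFD contralateral replicates 1, 2, 3 and 4 and 22 without HFD peritumoral replicate 3. Within the HFD peritumoral group, replicate 2 had the highest member share (0.687%), the most cell cycle CPM (766) and the least adipocyte CPM (13500), and 27 members were called without it.

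Within Chow animals the same comparison gave no call. Of 70 members tested 0 were higher and 0 lower with edgeR, against backgrounds of 0% and 0%, 1 had an unadjusted p under 0.05, and DESeq2 and voom called 0. The median was -0.02, with 30 positive and 40 negative values. Rps3 had 210.9, 247.7, 206.8 and 199.7 CPM in peritumoral libraries, against 231.4, 207.5, 207.1 and 232.5 CPM in contralateral libraries, and the groups overlapped (-0.02 ± 0.09, adjusted p = 0.939). Rpl35 was at 22.7 ± 2.13 CPM in Chow peritumoral fat. Chow peritumoral replicate 4 differed from its group in both directions, with Rpl39 at 51.4 CPM against 28.4 to 30.8 CPM and Rps14 at 32.9 CPM against 71.9 to 93.7 CPM in the other replicates. Of 61 members with at least 1000 counts, the SD around the library's common shift was 0.39 on the log2 scale in this library and 0.09 to 0.25 in the other 23.

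The difference between the diets in the effect of tumor side was tested as an interaction. Of 72 members 70 had a positive value and the median was 0.45 (0.02 for all genes), but edgeR called 0 higher and 0 lower, against backgrounds of 0% and 0%. With edgeR 40 members had an unadjusted p under 0.05, and DESeq2 called 5 and voom 7, all higher. Rpl12 had the largest value, 1.08 ± 0.32 (adjusted p = 0.121), Rps3 had 0.53 ± 0.16 (adjusted p = 0.125) and Rpl3 had 0.61 ± 0.19 (adjusted p = 0.126). Without HFD peritumoral replicate 1, 21 members were called higher. Shares of all genes are not given for the counts of 40, 5, 7 and 21, so these are not read as a result about the members. The effect of side was thus called on HFD and not on Chow, and the difference between the diets was not called for any member with edgeR.

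Between contralateral and no-tumor fat the median of the members was 0.14 on HFD and -0.16 on Chow, on the TMM scale. On HFD 5 members of 69 were higher and 0 lower, against backgrounds of 2.72% and 3.37% (median of all genes 0.01). Rps14, Rps21, Rpl41 and Rpsa were among them. Rps14 had 89.0, 83.5, 90.2 and 79.5 CPM in contralateral libraries, against 71.8, 66.1, 69.5 and 72.1 CPM in no-tumor libraries, without overlap (0.27 ± 0.06, adjusted p = 0.0181). Rpsa had 60.3 ± 7.38 CPM in contralateral and 47.2 ± 3.49 CPM in no-tumor fat (0.33 ± 0.09, adjusted p = 0.0470). Macrophage genes (5 higher of 12), mature adipocyte genes (4 higher of 14), mammary epithelium genes (5 lower of 11 tested) and nuclear noncoding RNAs (4 lower of 4) moved in the same comparison, and their part was not tested. With total counts 0 were called and the median was 0.05. The count was 22 without contralateral replicate 4, 3 without no-tumor replicate 4, 1 and 2 without contralateral replicates 1 and 2, and 0 without contralateral replicate 3 or no-tumor replicates 2 or 3.

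On Chow 0 members of 69 were higher and 11 lower in contralateral fat, against backgrounds of 4.93% and 3.02% (median of all genes -0.01). Rpl41 had 119.2, 100.9, 100.3 and 100.1 CPM in contralateral libraries, against 145.1, 127.5, 142.5 and 141.9 CPM in no-tumor libraries, without overlap (-0.37 ± 0.07, adjusted p = 0.0150). Rplp1 and Rplp2 fell by 0.35 ± 0.08 and 0.28 ± 0.08 (adjusted p = 0.0258 and 0.0474), and Rpl22, which has the close paralog Rpl22l1, by 0.23 ± 0.05 (adjusted p = 0.0278). Rpl28 and Rpl11 had 0.88 ± 0.25 and 0.66 ± 0.21 (adjusted p = 0.0560 and 0.0730). This direction depended on the scaling: with total counts 2 members were called, both higher, the median was -0.02, and the median of all genes was 0.13. Relative to the median of all genes, that of members was -0.15 on both scales. That value was bound to stay, since a change of scaling moves all genes of a library alike. Endothelial markers summed to 604 to 718 CPM in contralateral and to 521 to 576 CPM in no-tumor fat (4 higher of 9), and nuclear noncoding RNAs to 11540 to 11980 CPM in contralateral and to 8444 to 9272 CPM in no-tumor fat (3 higher of 4). Mitochondrial ribosomal RNA took 23.1% to 26.4% of counts in contralateral and 29.7% to 34.8% in no-tumor fat. Skeletal muscle markers averaged 2906 ± 2104 CPM in contralateral and 332 ± 545 CPM in no-tumor fat (SD, n = 4 each), with overlap and 0 of 11 called. What part these had in the members' values was not tested. The count was 1 lower with the replicate number as a block, 26 lower and 1 higher without no-tumor replicate 2, and 1 to 4 lower without any other single library.

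The interaction of diet with tumor bearing compared these changes directly. Of 72 members, 30 were higher and 3 lower, against backgrounds of 9.94% in each direction, with a median of 0.31 (0.01 for all genes), a positive value meaning that contralateral minus no-tumor was larger on HFD than on Chow. With total counts this turned to 0 higher and 5 lower while the median of all genes was at -0.24. Relative to the median of all genes, that of members was 0.30 on both scales. Such a value is bound to stay, since a change of scaling moves all genes of a library alike. Rpl41 had 0.60 ± 0.09 (adjusted p = 0.000449), Rps14 0.54 ± 0.09 (adjusted p = 0.000950) and Rpl13a, a protein released from the ribosome under interferon gamma in human cells, 0.46 ± 0.10 (adjusted p = 0.00419). Rpsa had 0.52 ± 0.12 (adjusted p = 0.00604), Rplp1 0.51 ± 0.12 (adjusted p = 0.00746) and Rplp0 0.42 ± 0.10 (adjusted p = 0.00770). Rpl11 and Rpl5 were lower, at -1.30 ± 0.29 and -0.55 ± 0.14 (adjusted p = 0.00651 and 0.0132). Over the 24 libraries Rpl11 held 826 counts and Rpl5 held 3052. All 3 lower calls lay in the class with no coding stretch of its own, which had 2 higher calls and a median of -0.23. The other class had 28 higher and 0 lower calls and a median of 0.35, and this split was not tested. The third lower call, Rps27, rests on few reads: it averaged 0.32 CPM in HFD contralateral, 0.49 CPM in HFD no-tumor, 0.75 CPM in Chow contralateral and 0.41 CPM in Chow no-tumor fat, and it did not pass the low-count filter in the pairwise comparisons of these groups.

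In this interaction 11 of 23 translation factor and TOP genes were higher and 1 lower (median 0.26), and 4 of 35 ribosome assembly genes were higher and 0 lower (median 0.17). Of 76 mitochondrial ribosomal protein genes 28 were higher and 1 lower (median 0.33), and of 92 oxidative phosphorylation genes 44 were higher and 0 lower (median 0.38). With total counts the same lists gave 0 higher and 1 lower, 0 and 0, 1 higher and 2 lower, and 2 higher and 1 lower, so these directions too depended on the scaling. Myc had 0.81 ± 0.19 and Eif4ebp1, the translation repressor that mTORC1 inactivates, had 0.52 ± 0.10 (adjusted p = 0.00714 and 0.00303). Neat1 had -1.53 ± 0.16 and Malat1 -0.73 ± 0.10 (adjusted p = 5e-05 and 0.000404), macrophage genes gave 7 higher of 12 (0 higher and 1 lower with total counts) and endothelial genes 7 lower of 9 (7 lower with total counts). The part of these in the members' values was not tested. Without HFD contralateral replicate 1 there were 17 higher and 2 lower, and without HFD contralateral replicate 3 there were 17 higher and 3 lower.

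Beside the members, their paralogs and copies were read as separate rows. Of 8 tested ribosomal paralogs, 4 were higher and 0 lower in HFD peritumoral against HFD contralateral fat (median 0.28), and in no-tumor fat 1 was higher and 3 were lower on HFD (median -0.27), among them Rps3a1 at -0.34 ± 0.08 (adjusted p = 0.0111). Of 237 pseudogene rows with member-like symbols 35 were tested in the diet comparisons. In no-tumor fat 0 of them were higher and 10 lower on HFD (median -0.30), and in peritumoral fat 10 were higher and 1 lower (median 0.54). Reads of a member and of its copies cannot be told apart where their sequences match.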

How the data were processed

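The members and all gene lists were chosen with earlier results of these data known. The deposited values were counts per gene, which the authors gave as a single matrix on mm10; per the submitters' processing notes TopHat and DESeq were used, with versions, read length, strand and the treatment of reads with several matches not given in the sources used here. Every column matched a sample title. Columns of no sample numbered 0.

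Each comparison was fitted on all genes of its own 8 libraries (16 for interactions) by the robust quasi-likelihood test of edgeR 4.0.16, run in R 4.3.3 (TMM factors, filterByExpr with a minimum count of 10 and total of 15), with Benjamini-Hochberg adjustment and a threshold of 0.05. Totals of 9.13 to 18.2 M counts give the rarest member, Rpl23a, 73 counts in 24 libraries. Named members were 22 chosen for their role, plus, in each comparison, up to 4 higher and 4 lower called members with the lowest adjusted p and the 2 highest and 2 lowest fold changes. Other members named in a list of calls or by their level, and the members whose sequences are shown, were chosen after their values were seen. Of each other list up to 3 called genes were named. Some members that meet these rules are not reported here by name.

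Same-numbered libraries deviated together in HFD peritumoral and HFD contralateral fat (correlation of deviations 0.107, 0.24, 0.406 and 0.532 for numbers 1 to 4). For number 1 the best other number gave 0.107 as well. The labels do not give a pairing, and these correlations do not establish one. The main test of this comparison was unpaired, and replicate numbers entered only in the alternative with a replicate block. In no other comparison did every pair exceed 0.1. Replicate pairs all differed beyond sampling noise (mean chi-square per gene at least 3.74). Alternatives were DESeq2 1.42.0, limma 3.58.1 (voom), other scalings and filters, all libraries in 1 fit, the replicate block, a B cell covariate and leaving out each library.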

Additional observations from a re-analysis of the deposited data

Results flagged for a closer look

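In 23 measures (22 members named for their role and the summed members) and 6 groups of 4 libraries, 138 groups were examined for a library far from the other 3, and 11 were found. Chance gives about 1 in 20. HFD peritumoral replicate 2 was high for Rpl4 (695 CPM, others 508 to 532), Rpsa (109 CPM, others 73.8 to 78.8) and Rps25 (33.9 CPM, others 24.9 to 25.6). Chow peritumoral replicate 4 was high for Rpl39 (51.4 CPM, others 28.4 to 30.8) and Rpl17 (4.10 CPM, others 3.72 to 3.76) and low for Rpl3 (14.7 CPM, others 19.6 to 20.5). Chow contralateral replicate 1 was high for Rps14 (87.9 CPM, others 73.5 to 75.8), Rpl41 (119 CPM, others 100.1 to 100.9) and the summed members (3725 CPM, others 3485 to 3507). Chow no-tumor replicate 4 was high for Rpl10 (9.28 CPM, others 6.75 to 6.88), and Chow no-tumor replicate 2 was low for Rps2 (75.98 CPM, others 96.4 to 98.6).

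The effect of tumor bearing differed between HFD and Chow for 14 of the 22 members named for their role (edgeR's interaction test, adjusted p below 0.05, log2 values of HFD minus Chow). Of all genes tested, 9.94% were called higher and 9.94% lower. The difference was positive for Rplp0 (0.42), Rplp1 (0.51), Rplp2 (0.44), Rpl4 (0.28), Rpl39 (0.33), Rpl22 (0.37), Rps2 (0.49), Rps3 (0.45), Rpsa (0.52), Rps14 (0.54), Rps25 (0.34) and Rpl41 (0.60). It was negative for Rpl5 (-0.55) and Rpl11 (-1.30), both of the class with no coding stretch of its own. These directions are on the TMM scale, and with total counts 0 members were higher and 5 lower.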

How the results depend on the processing

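The main counts of called members were 37 (HFD against Chow, no-tumor), 13 (contralateral), 29 (peritumoral), 35 (side on HFD), 0 (side on Chow), 5 (tumor bearing on HFD), 11 (tumor bearing on Chow), 0 (diet by side) and 33 (diet by bearing). With the replicate number as a replicate block the counts were 38, 13, 34, 39, 0, 3, 1, 0 and 33 in that order. Under RLE factors and the filter of 1 CPM all counts stayed within 1.5 times. Where counts moved further or turned in direction, the cause was not tested. Shares of all genes called under these alternatives are not given here. With all 24 libraries in 1 fit they were 12 for no-tumor diet, 49 for peritumoral diet, 0 and 1 for bearing on HFD and Chow, 4 for diet by side and 10 for diet by bearing. With total counts they were 5 for no-tumor diet and 0 for bearing on HFD, and turned in direction for bearing on Chow (2) and diet by bearing (5). With voom they were 20 for contralateral diet (11 higher and 9 lower, turned in direction), 10 and 26 for bearing on HFD and Chow and 7 for diet by side. DESeq2 called 5 for diet by side. With the B cell covariate they were 11 for side on HFD and 2 and 0 for bearing on HFD and Chow. For bearing on HFD the count was 8 without a low-count filter and 3 with scaling without mitochondrial and nuclear RNA. Leaving out 1 library gave 21 to 46, 10 to 28 (18 higher and 10 lower without HFD contralateral replicate 4), 18 to 35, 12 to 43, 0, 0 to 22, 1 to 27, 0 to 21 and 19 to 39, in the order of the main counts. Single named members and medians gave 4275 values labelled the same as the main one, 338 that lost their call and 80 that gained one. A further 5 medians moved, and 0 members changed sign while called. The same label means an unchanged call, or a median that shifted by less than the median SE of members. Members called in neither fit can differ in sign under it. Members with few counts limit what can be seen, as 15 of the 76 had fewer than 1000 counts in all.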
